A study of Mus musculus with 2 samples.

Results

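Glycolysis splits glucose into pyruvate in the cytosol, with a net gain of ATP and NADH, and lactate dehydrogenase then converts pyruvate and lactate into each other. In the brain, astrocytes take up glucose along the blood vessels and can pass lactate to neurons, and some steps have isozymes that mark cell types, such as aldolase C in astrocytes and enolase 2 in neurons. To ask how genes of this pathway compared between injured and sham thalamus, 10 of the 32285 genes in the count tables were described: Aldoa, Aldoc, Tpi1, Gapdh, Pgk1, Pgam1, Eno2, Pkm, Ldha and Ldhb. They were taken by name, matched through Ensembl identifiers to mouse symbols on GRCm38, and all 10 had a row. The set was proposed with its ratios between the libraries in these classes already known, so every ratio below is a description and no test stands behind it.

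Each group was 1 library of nuclei pooled in equal numbers from 4 female C57BL/6J mice aged 3 months. The Injury mice had a cortical ablation injury, in which sensory and motor cortex was removed by aspiration, and the Sham mice had a burr hole but kept their cortex. Thalamus of the operated side was taken on day 21, and nuclei were stained with propidium iodide, sorted and profiled by droplet-based 3′ RNA sequencing with unique molecular identifiers (UMIs, which count captured molecules). The mice of a pool carried no mark, so there is no replicate and no spread between animals. Intervals are 95% exact intervals of the counts and cover counting error only. The values are from nuclei, whose RNA includes transcripts still being processed, and say nothing of the mRNA in the cytosol or of enzyme activity.

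The promoters are shown first, because the members are often described as sharing control through hypoxia response elements. The window was 250 bases before to 50 bases after a RefSeq start on GRCm38.p6, and the letters searched were ACGTG and GCGTG on both strands, so that CACGTG is matched once on each strand. Matches are in capitals, 5′ to 3′ along the gene. Shown are Pgam1, Tpi1 and Pgk1, 3 of the 5 genes whose ratios of injury over sham had intervals below 0 in both neuron classes, and Ldha, which had the most matches of the 10 genes (the other 2 of the 5, Aldoa and Ldhb, had at most 1 match in a window and are left out for length):
Pgam1, chr19:41911621-41911920, plus strand: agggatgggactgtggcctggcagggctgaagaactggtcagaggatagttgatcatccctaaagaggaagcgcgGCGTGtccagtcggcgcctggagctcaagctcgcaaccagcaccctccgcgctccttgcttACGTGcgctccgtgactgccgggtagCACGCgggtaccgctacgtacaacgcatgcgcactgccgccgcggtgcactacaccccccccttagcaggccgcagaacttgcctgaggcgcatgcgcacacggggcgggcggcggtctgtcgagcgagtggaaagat
Tpi1, chr6:124814109-124814408, minus strand: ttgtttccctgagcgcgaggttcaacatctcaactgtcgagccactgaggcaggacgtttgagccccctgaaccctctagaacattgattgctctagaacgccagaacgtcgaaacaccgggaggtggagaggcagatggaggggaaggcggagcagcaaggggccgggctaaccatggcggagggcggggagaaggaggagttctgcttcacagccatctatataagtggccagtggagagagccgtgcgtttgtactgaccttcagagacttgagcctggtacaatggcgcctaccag
Pgk1, chrX:106186850-106187149, plus strand: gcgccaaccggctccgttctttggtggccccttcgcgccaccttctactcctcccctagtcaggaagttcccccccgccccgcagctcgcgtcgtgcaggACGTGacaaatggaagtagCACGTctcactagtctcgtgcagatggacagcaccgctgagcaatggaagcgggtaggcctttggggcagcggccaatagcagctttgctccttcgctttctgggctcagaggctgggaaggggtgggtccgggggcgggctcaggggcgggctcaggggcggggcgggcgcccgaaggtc
Ldha, chr7:46845554-46845853, plus strand: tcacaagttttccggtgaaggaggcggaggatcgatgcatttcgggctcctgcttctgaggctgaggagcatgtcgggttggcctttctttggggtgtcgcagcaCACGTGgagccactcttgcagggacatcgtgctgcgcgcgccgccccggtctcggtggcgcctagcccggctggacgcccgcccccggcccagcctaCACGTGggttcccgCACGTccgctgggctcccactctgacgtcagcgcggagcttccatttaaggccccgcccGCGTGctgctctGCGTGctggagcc
The first Ldha window held 7 matches in 5 runs of letters, the Pgam1 window 3, the Pgk1 window 2 and the Tpi1 window 0. At least 1 match was found in a window of 8 of the 10 genes, all but Tpi1 and Eno2. Over all genes with a window, 46.7% of 27025 had a match in any window, and 43.8% of the 32851 windows held one. A match of letters is not a binding site.

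The classes were rebuilt from the counts and named from marker lists, so that each is astrocyte-like, oligodendrocyte-like and so on, and short names are used below. Astrocytes numbered 209 sham and 510 injury nuclei, oligodendrocytes 1005 and 2318, glutamatergic neurons 11691 and 12212, and GABAergic neurons 1973 and 3274. Median UMIs per nucleus were 1892 and 2544 in astrocytes, 1552 and 1656 in oligodendrocytes, 7870 and 7982.5 in glutamatergic neurons, and 6263 and 6169.5 in GABAergic neurons. The class's own markers were at like levels in both libraries, with 12069.5 and 12576 CPM for 12 astrocyte markers and 21037 and 21219.5 CPM for 11 oligodendrocyte markers. The 3 vesicular glutamate transporter genes summed to 196 and 181 CPM in glutamatergic neurons, and the 4 GABAergic markers to 653 and 622 CPM in GABAergic neurons, against 26.3 and 31.6 CPM in glutamatergic ones. Astrocyte sums of the members were small, with 286 member UMIs in the sham library against 25918 in glutamatergic neurons. The 2 libraries had 101 barcodes in common, and without them no ratio of a member moved out of its interval.

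Levels are given as CPM, the UMIs of a gene per 1000000 UMIs of the class, and ratios as injury over sham on the log2 scale. Summed over the 10 genes, the share of a class's UMIs was lower in the injury library in astrocytes and in both neuron classes. In glutamatergic neurons the sum was 25918 sham and 25202 injury UMIs, or 246 (243 to 249) against 221 CPM (218 to 224), which gave a ratio of -0.15 (-0.18 to -0.13). GABAergic neurons had 4181 sham and 6241 injury UMIs, or 298 (289 to 307) against 268 CPM (261 to 274), a ratio of -0.16 (-0.21 to -0.099). In astrocytes there were 286 sham and 755 injury UMIs, or 630.3 (559 to 708) against 527 CPM (490.4 to 566), a ratio of -0.26 (-0.46 to -0.056), and without Aldoc, whose own ratio there was above 0, the sum was at -0.46. Oligodendrocytes had 559 sham and 1270 injury UMIs, or 316 (290.4 to 343) against 293 CPM (277 to 309.9), and their ratio of -0.11 (-0.25 to 0.038) included 0.

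Single members were mostly lower, and none had an interval above 0 in any of the 4 classes. The interval lay below 0 for 9 of 10 genes in glutamatergic neurons, all but Pkm, for 5 of 10 in GABAergic neurons (Aldoa, Tpi1, Pgk1, Pgam1 and Ldhb), for 2 in astrocytes (Tpi1 and Ldhb) and for 1 in oligodendrocytes (Pgam1). Of all genes with at least 50 UMIs, 23.6%, 15.5%, 7.3% and 11.4% had an interval below 0 in the same order of classes, and 24.5%, 15.5%, 8.75% and 9.72% had one above 0. Intervals narrow with the number of UMIs, so these counts follow the depth of each gene and class and do not rank the classes. Lower by at least 0.25 on the log2 scale, the fold the study used, were 3 of 10 genes in glutamatergic neurons (Aldoa, Pgam1 and Tpi1), where 12.4% of 19401 genes with at least 50 UMIs were lower by that much. In GABAergic neurons 3 of 10 were lower (Pgk1, Pgam1 and Tpi1), against 13.1% of 15354 genes. In astrocytes 7 of 10 were lower, against 25.2% of 5906 genes, but 3 of the 7, Pgam1, Eno2 and Ldha, had fewer than 50 UMIs, and 4 of the 7 members that reached this minimum were lower. In oligodendrocytes, where Ldha missed the minimum, 3 of 10 were lower and 1, Eno2, was higher, against 24.5% lower and 19.7% higher of 9530 genes. These genes were picked with their ratios known, so nothing is read from the difference to all genes. The median over the 10 genes was -0.41 in astrocytes, -0.082 in oligodendrocytes, -0.18 in glutamatergic and -0.18 in GABAergic neurons, beside -0.017, -0.037, 0.0087 and 0.0046 over all genes tested.

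**Figure D1:**
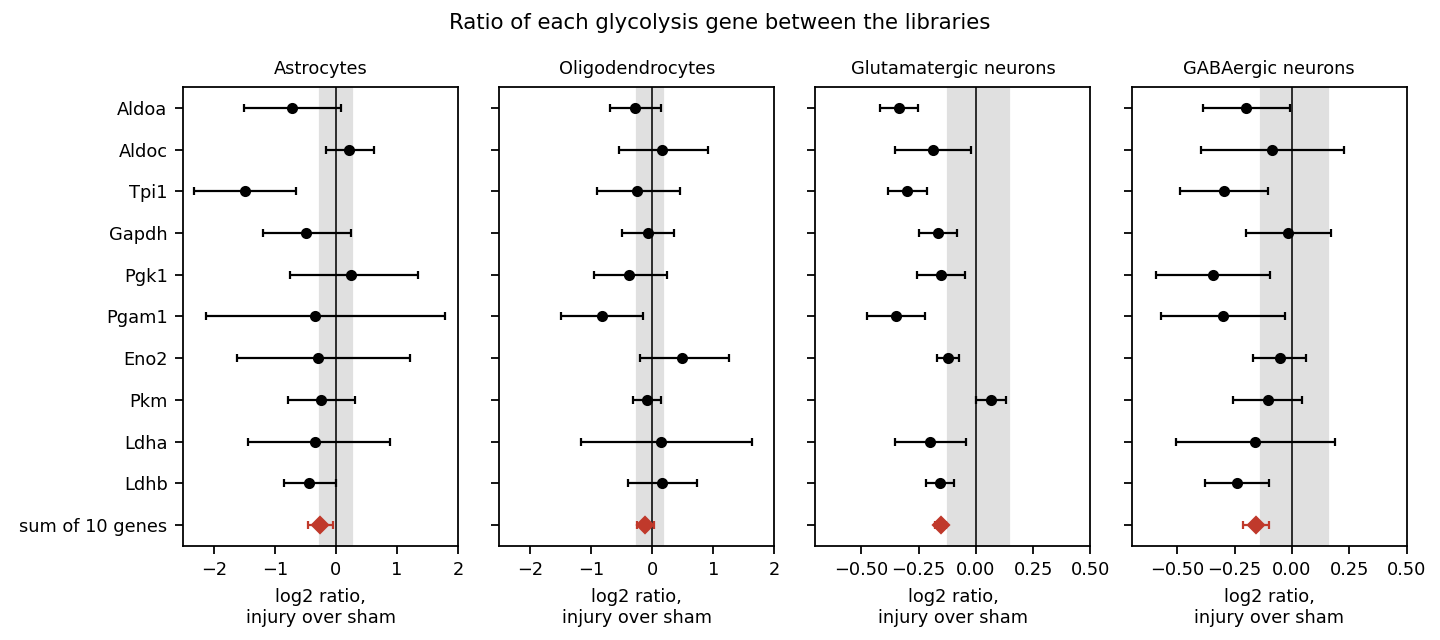
Log2 ratio of injury over sham (horizontal axis, wider for the glial classes) of each gene and of their sum (diamond), with 95% intervals of the counts. Grey bands span the middle quartiles of all genes with at least 50 UMIs in the class. Most points lie left of 0, with Tpi1 in astrocytes farthest at -1.49 and Pkm in glutamatergic neurons right of it at 0.065.

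The aldolases split fructose 1,6-bisphosphate into triose phosphates. Aldoa (chromosome 7, 126795234 to 126800751, minus strand), the widely expressed isozyme, had 2560 sham and 2198 injury UMIs in glutamatergic neurons, or 24.3 (23.4 to 25.2) against 19.3 CPM (18.5 to 20.1), and a ratio of -0.33 (-0.42 to -0.25). In GABAergic neurons it had 389 and 563 UMIs and a ratio of -0.20 (-0.39 to -0.010). Aldoa was thus lower in both neuron classes by more than the counting error. Oligodendrocytes gave 74 and 150 UMIs, 41.8 and 34.6 CPM and a ratio of -0.27 (-0.68 to 0.15). Astrocytes gave 22 and 42 UMIs and -0.72 (-1.50 to 0.090). Both glial intervals included 0.

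Aldoc (chromosome 11, 78322968 to 78327781, plus strand) encodes the brain isozyme and is a classic astrocyte gene. It was far higher in astrocytes than in any other of the 4 classes, with 72 sham and 265 injury UMIs, or 159 (124 to 199.8) against 185 CPM (163 to 209). Its astrocyte ratio was 0.22 (-0.16 to 0.62). Aldoc and Pgk1 were the 2 members above 0 in astrocytes, and neither interval excluded 0. In glutamatergic neurons it had 603 and 573 UMIs, 5.72 and 5.02 CPM and a ratio of -0.19 (-0.35 to -0.020), and in GABAergic neurons 143 and 224 UMIs and -0.086 (-0.40 to 0.23). Aldoc UMIs were found in 27.8% (21.8 to 34.3) of sham and 37.3% (33.0 to 41.6) of injury astrocytes. The same shares were 4.91% (4.53 to 5.32) and 4.45% (4.09 to 4.83) in glutamatergic neurons, which had more UMIs per nucleus. With every nucleus thinned to 2000 UMIs, 31.3% of 96 sham and 30.1% of 345 injury astrocytes had an Aldoc UMI, after 113 sham and 165 injury astrocytes of lower depth were left out. Thinned in the same way, 1.15% of 11448 sham and 1.25% of 11967 injury glutamatergic neurons had one, with 243 and 245 nuclei left out, and the glutamatergic ratio turned to 0.12, so its direction there depended on this setting.

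Tpi1 (chromosome 6, 124810586 to 124814296, minus strand), which encodes triosephosphate isomerase and interconverts the triose phosphates, had the lowest ratio of any member in astrocytes. There were 25 sham and 28 injury UMIs in astrocytes, or 55.1 (35.7 to 81.3) against 19.6 CPM (13.0 to 28.3), a ratio of -1.49 (-2.33 to -0.66). The 2 CPM intervals did not overlap. The ratio rested on 25 sham UMIs, and over the alternative settings it stayed between -1.53 and -1.25. In glutamatergic neurons Tpi1 had 2371 and 2085 UMIs, 22.5 and 18.3 CPM and a ratio of -0.30 (-0.38 to -0.21). GABAergic neurons gave 396 and 536 UMIs and a nearly equal ratio of -0.30 (-0.49 to -0.11). Oligodendrocytes, with 29 and 60 UMIs, were at -0.24 (-0.91 to 0.45), and there the alternative settings ranged from -0.51 to 0.43. The main ratio of Tpi1 was thus below 0 in all 4 classes, but the oligodendrocyte interval included 0.

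Gapdh (chromosome 6, 125161715 to 125166467, minus strand) encodes glyceraldehyde-3-phosphate dehydrogenase, which forms NADH and is often used as a reference gene. It was lower in glutamatergic neurons, with 2439 and 2352 UMIs, 23.1 (22.2 to 24.1) against 20.6 CPM (19.8 to 21.5) and a ratio of -0.17 (-0.25 to -0.084). In GABAergic neurons the libraries gave 27.6 and 27.3 CPM, and the ratio of -0.017 (-0.20 to 0.17) was the one nearest 0 of the 10 genes. Astrocytes had 25 and 56 UMIs and a ratio of -0.49 (-1.20 to 0.25), and oligodendrocytes 69 and 161 UMIs and -0.069 (-0.48 to 0.36). A difference of Gapdh was therefore seen beyond counting error in glutamatergic neurons alone of the 4 classes.

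Pgk1 (chromosome X, 106187100 to 106203699, plus strand) encodes phosphoglycerate kinase, the first step of the pathway that makes ATP. Glutamatergic neurons had 1502 and 1464 UMIs, 14.3 and 12.8 CPM and a ratio of -0.15 (-0.26 to -0.046). In GABAergic neurons it had 237 and 310 UMIs, 16.9 (14.8 to 19.2) against 13.3 CPM (11.9 to 14.9) and, at -0.35 (-0.59 to -0.096), the lowest ratio of the members there. Glial values pointed in different directions within wide intervals, with 11 and 41 UMIs and 0.24 (-0.75 to 1.35) in astrocytes and 38 and 72 UMIs and -0.37 (-0.96 to 0.24) in oligodendrocytes.

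Pgam1 (chromosome 19, 41911923 to 41918660, plus strand), the gene of phosphoglycerate mutase, had the lowest ratio of the members in glutamatergic neurons and in oligodendrocytes. It had 1115 sham and 948 injury UMIs in glutamatergic neurons, or 10.6 (9.97 to 11.2) against 8.31 CPM (7.79 to 8.86), and a ratio of -0.35 (-0.47 to -0.22). In oligodendrocytes there were 34 and 47 UMIs, 19.2 (13.3 to 26.9) against 10.9 CPM (7.98 to 14.4) and a ratio of -0.82 (-1.49 to -0.14), the only member there with an interval clear of 0. With nuclei thinned to 2000 UMIs the ratio was 0.11, but this left out 714 of 1005 sham and 1510 of 2318 injury nuclei, and few of the rest, 1.72% of 291 and 1.86% of 808, had a Pgam1 UMI. GABAergic neurons had 200 and 270 UMIs and -0.30 (-0.57 to -0.030). In astrocytes 4 and 10 UMIs gave -0.34 (-2.13 to 1.79), too few to read a direction.

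Eno2 (chromosome 6, 124760053 to 124769673, minus strand) encodes the neuronal enolase. Its level was 64.7 and 59.4 CPM in glutamatergic and 70.4 and 67.9 CPM in GABAergic neurons, against 12.4 and 17.6 CPM in oligodendrocytes and 15.4 and 12.6 CPM in astrocytes. Glutamatergic neurons had 6818 and 6775 UMIs and a ratio of -0.12 (-0.17 to -0.074). In GABAergic neurons, with 988 and 1583 UMIs, the ratio was -0.054 (-0.17 to 0.063). Oligodendrocytes had 22 and 76 UMIs and the highest ratio of any member in the 4 classes, 0.50 (-0.20 to 1.25), with an interval that included 0. Markers of neurons were also higher in injury oligodendrocytes, at a summed 724 sham and 844 injury CPM, with a ratio of 0.22 (0.13 to 0.31) over 6 genes, all 6 detected in both libraries. Their part in the Eno2 value was not tested.

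Pkm (chromosome 9, 59656368 to 59679375, plus strand) encodes the muscle-type pyruvate kinase, which carries out the last step and is spliced into isoforms that these counts do not separate. It was the member that stood apart from the rest in glutamatergic neurons, with 3509 sham and 3972 injury UMIs, or 33.3 (32.2 to 34.4) against 34.8 CPM (33.8 to 35.9), and a ratio of 0.065 (-0.00079 to 0.13). GABAergic neurons gave 597 and 922 UMIs and -0.11 (-0.26 to 0.044). In oligodendrocytes, the class of the 4 with the highest Pkm level, it had 226 and 521 UMIs, 128 (112 to 146) against 120.3 CPM (110.2 to 131) and a ratio of -0.087 (-0.31 to 0.14). Astrocytes were at 41 and 109 UMIs and -0.25 (-0.78 to 0.31). All 4 intervals included 0, and those of the 3 classes other than astrocytes lay between -0.31 and 0.14.

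Ldha and Ldhb encode the subunits of lactate dehydrogenase, and tetramers rich in the Ldhb subunit favour the conversion of lactate to pyruvate. Ldhb (chromosome 6, 142490249 to 142507957, minus strand) was highest in astrocytes among the 4 classes, with 69 sham and 161 injury UMIs, or 152 (118 to 192) against 112 CPM (95.7 to 131), and a ratio of -0.44 (-0.85 to -0.0069). That interval only just excluded 0, and the ratio was 0.0060 with nuclei thinned to 2000 UMIs, which left 96 sham and 345 injury astrocytes. In glutamatergic neurons Ldhb had 4291 and 4166 UMIs, 40.7 and 36.5 CPM and a ratio of -0.16 (-0.22 to -0.095). GABAergic neurons gave 727 and 1023 UMIs, 51.8 and 43.9 CPM and -0.24 (-0.38 to -0.10). Without the astrocyte cluster found in the injury library alone, the astrocyte ratio was -0.38 (-0.82 to 0.062), which included 0. The neuron intervals lay below 0. In oligodendrocytes, with 37 and 101 UMIs, it was at 0.16 (-0.40 to 0.74). Ldha (chromosome 7, 46841475 to 46855627, plus strand) was sparse. It had 710 and 669 UMIs in glutamatergic neurons with a ratio of -0.20 (-0.35 to -0.045), and 117 and 174 UMIs in GABAergic neurons with a ratio of -0.16 (-0.51 to 0.19). In astrocytes, where its CPM was highest of the 4 classes, 10 and 25 UMIs gave -0.34 (-1.44 to 0.89), and in oligodendrocytes 7 and 19 UMIs gave 0.15 (-1.16 to 1.64).

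The order of the classes differed from gene to gene. Levels are compared here for 1 gene at a time, since UMI counts of different genes were not put on a common scale. Aldoc had the widest spread, with 27.7 times the CPM of glutamatergic neurons in astrocytes in the sham library and 36.8 times in the injury library. Ldhb followed the order astrocytes, GABAergic neurons, glutamatergic neurons and oligodendrocytes in both libraries, with no overlap of neighbouring intervals, and its highest level was 7.27 and 4.82 times its lowest. Eno2 was highest in the 2 neuron classes, whose intervals overlapped in the sham library and not in the injury library. For Pkm the order was oligodendrocytes, astrocytes, GABAergic and glutamatergic neurons in both libraries, and the 2 glial classes overlapped in the sham library. The top position changed between the libraries for Aldoa, Pgam1 and Tpi1, and in each case the classes that changed place had overlapping intervals in the injury library. Tpi1 in particular was highest in astrocytes in the sham library (55.1 CPM) and lay below GABAergic neurons in the injury library (19.6 against 23.0 CPM). Neighbours of Pgk1 overlapped throughout.

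**Figure D2:**
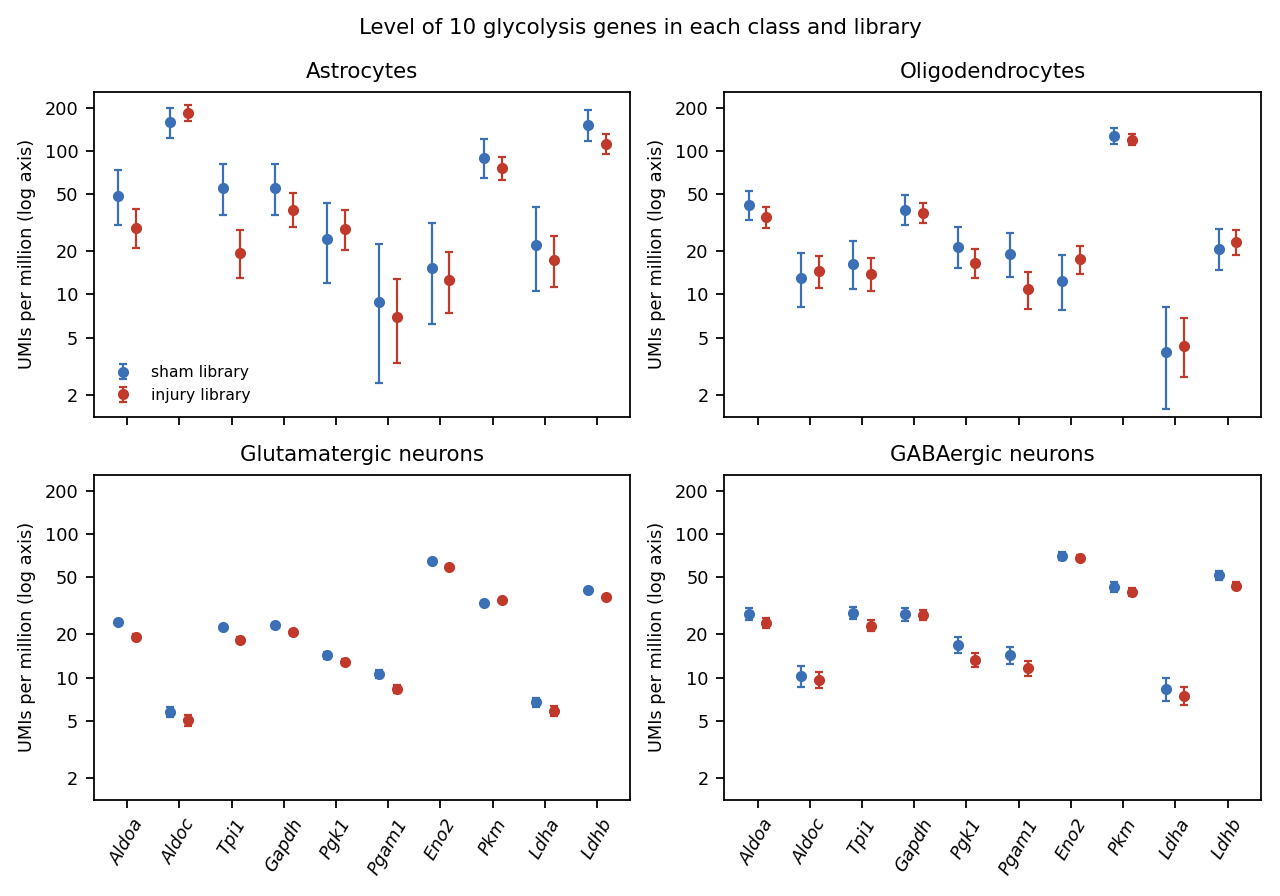
CPM (vertical axis, log scale) of the 10 genes, in pathway order, in the sham (blue) and injury (red) library, with 95% Poisson intervals. Aldoc and Ldhb stand high in astrocytes, Pkm in oligodendrocytes and Eno2 in the neurons, and the glial intervals are wide where few UMIs were counted.

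Both glial classes held a cluster that came mostly from the injury library, and the members were compared across it within that library. Among astrocytes this was a cluster of 94 injury and 0 sham nuclei, which carried Gfap, a filament gene of reactive astrocytes, at 1489 CPM against 34.2 CPM in the other 416 injury astrocytes. Gfap is one of the markers used to name the class. The summed members were at 555 CPM there and 518 CPM in the other astrocytes, a log2 difference of 0.10 (-0.14 to 0.34). Every one of the 10 intervals included 0, while 14.9% of 4853 genes had one above 0. Tpi1 had 3 and 25 UMIs and a difference of -1.44 (-3.81 to 0.28), Aldoc 78 and 187 UMIs and 0.36 (-0.040 to 0.75). Without this cluster the summed ratio of injury over sham in astrocytes was -0.28, against -0.26 with it. Leaving it out did not even out the libraries. Clustered more finely, at a resolution of 1, astrocytes outside the Gfap cluster still split unevenly. A cluster of 181 sham and 167 injury nuclei lay beside another of 28 and 246.

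Among oligodendrocytes a cluster of 56 sham and 952 injury nuclei had fewer UMIs per nucleus, with a median of 1149 in the injury library against 2052.5 in the other injury oligodendrocytes. Its summed members were higher than in those others, at 334 against 277 CPM, a difference of 0.27 (0.095 to 0.44). Aldoa, at 0.59 (0.085 to 1.09), and Gapdh, at 0.55 (0.062 to 1.03), had intervals above 0, and the other 8 included 0. Of 8382 genes, 1010 (12%) had an interval above 0 in this comparison. With the cluster left out, the oligodendrocyte sum was at -0.18, inside the interval of the whole class. At a resolution of 1, the most uneven oligodendrocyte clusters held 41 sham and 490 injury nuclei, 13 and 393, and 285 and 36. The last of these came mostly from the sham library. The part of such uneven make-up in the class ratios was not tested beyond the alternative settings.

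Within the neurons, the values were taken apart by cluster, using the 17 glutamatergic and 2 GABAergic clusters with at least 50 nuclei in each library. The members were kept out of the genes used for clustering. The summed members were lower in the injury library in 16 of 17 glutamatergic clusters, with an interval below 0 in 8 and above 0 in none. The lowest sum was in cluster 12, led by Adgrg6 and Egflam, at -0.34 (-0.47 to -0.21). The large clusters 1 (led by Lmx1a and Ebf3) and 2 (led by C6 and Snx31) were at -0.21 (-0.28 to -0.15) and -0.20 (-0.26 to -0.14). Cluster 8 (led by Ptprq and Kcnh8) and cluster 7 (led by Ano1 and Robo3) were near 0, at -0.0040 (-0.11 to 0.10) and -0.013 (-0.15 to 0.12). The exception was cluster 21, led by Sim1 and Oxt, with 75 sham and 178 injury nuclei and a ratio of 0.21 (-0.11 to 0.55). Both GABAergic clusters were lower, at -0.17 (-0.24 to -0.10) for cluster 0 (led by Gad2) and -0.13 (-0.23 to -0.021) for cluster 9 (led by Ubash3b and Meis2). The median of other genes under 20 kb lay above the summed members in 14 of these 19 clusters, such as clusters 1 and 12 at -0.023 and -0.18, and below them in the other 5, such as clusters 3 and 8 at -0.14 and -0.021 beside sums of -0.068 and -0.0040. A median over genes and a ratio of summed UMIs are unlike measures. The median over the members was -0.13 in cluster 3 and -0.035 in cluster 8.

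Gene by gene, Aldoa was lower in 14 of 17 glutamatergic clusters, with 7 intervals below 0, and Tpi1 in 13 of 17, with 6 below 0. Ldhb and Eno2 also had 6 intervals below 0 each. Of all genes with at least 50 UMIs in a cluster, 48.9% to 55.9% were lower and 6.22% to 19.7% had an interval below 0 across the 17 clusters. Aldoc in cluster 14 was at -1.06 (-2.19 to -0.0051) on 24 and 12 UMIs. In cluster 12, where 14.4% of 11009 genes had an interval below 0, so did Tpi1, Gapdh, Aldoa and Ldhb. Tpi1 was at -0.99 (-1.47 to -0.52) on 127 and 55 UMIs and Gapdh at -0.75 (-1.20 to -0.31). Aldoa was at -0.71 (-1.15 to -0.28) and Ldhb at -0.34 (-0.67 to -0.018). In cluster 2, the largest by sham nuclei, 6 members had an interval below 0, against 19.7% of 14551 genes, among them Pgam1 at -0.56 (-0.88 to -0.24) and Tpi1 at -0.49 (-0.69 to -0.28). Of all genes with at least 50 UMIs, 5.66% to 15.2% had an interval above 0 across the 17 glutamatergic clusters. In GABAergic clusters 0 and 9 the share was 15.4% and 7.89%. Among the members, 3 values in the neuron clusters had an interval above 0. They were Pkm in cluster 3 at 0.26 (0.057 to 0.45), Eno2 in cluster 21 at 0.82 (0.18 to 1.51) on 25 and 104 UMIs, and Aldoc in cluster 8 at 0.89 (0.14 to 1.68) on 24 and 43 UMIs. These were picked out after the values of all clusters had been seen.

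**Figure D3:**
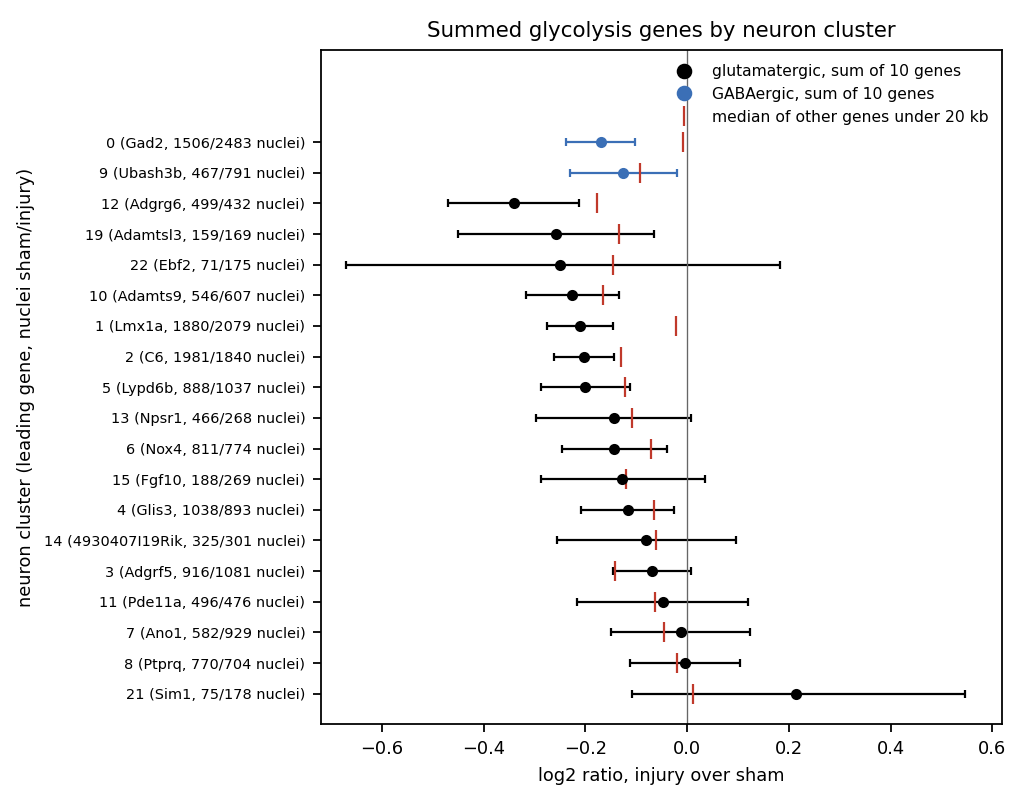
Log2 ratio of injury over sham (horizontal axis) of the summed 10 genes in each neuron cluster with its 95% interval, black for glutamatergic and blue for GABAergic clusters, and the median of the other genes under 20 kb in the same cluster (red tick). All but cluster 21 lie below 0, from -0.34 in cluster 12 to -0.0040 in cluster 8.

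The members are short genes, and the median gene under 5 kb was lower in the injury library in all 4 classes. Gene bodies ran from 3.71 kb for Tpi1 to 23.0 kb for Pkm, with 9 of 10 under 20 kb, while the median gene tested was 53.1 kb in astrocytes and 22.1 kb in glutamatergic neurons. Among all other genes with at least 50 UMIs, those under 5 kb had a median ratio of -0.44 in astrocytes, -0.35 in oligodendrocytes, -0.13 in glutamatergic and -0.10 in GABAergic neurons. Genes over 100 kb had 0.069, 0.10, 0.063 and 0.032. In every class the median was higher in each longer bin, and that of 5 to 20 kb was at -0.15, -0.14, -0.026 and -0.0037. In GABAergic neurons 16.8% of the genes of 5 to 20 kb were lower by at least 0.25 and 18.2% higher. This bin held 6 of the members. Set against the median of their own length bin, 9 of 10 members were lower in glutamatergic neurons, 8 in GABAergic neurons, 8 in astrocytes and 4 in oligodendrocytes. The median distance to the bin was -0.13, -0.18, -0.23 and 0.16 in the same order. Pkm, the longest member, was the 1 above its bin in glutamatergic neurons. Length and the ratio moved together here, and the part of length in the members' values was not tested.

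**Figure D4:**
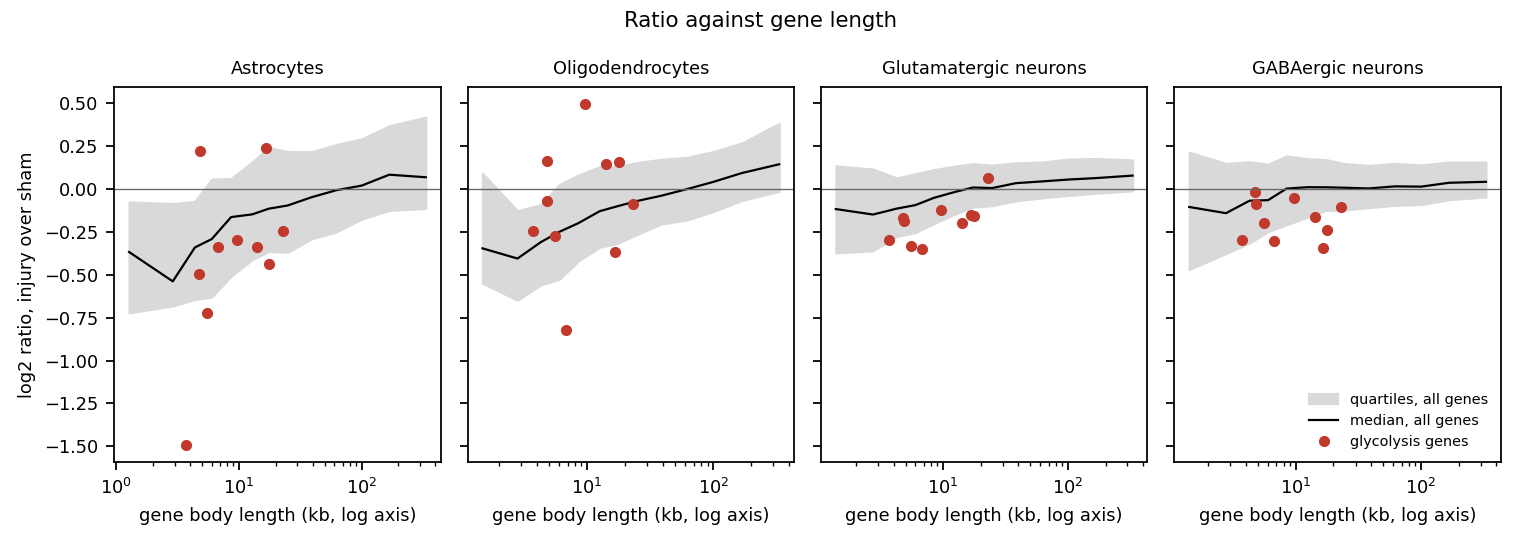
Log2 ratio of injury over sham (vertical axis) against gene body length in kb (horizontal axis, log scale), with the median (line) and quartiles (grey) of all other genes with at least 50 UMIs and the 10 glycolysis genes (red). Past the shortest genes the line climbs with length, least in GABAergic neurons, and most of the red points in the neuron panels lie below it.

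Several members have pseudogenes, copies with which reads can be shared. In GENCODE M21, 252 pseudogenes shared at least one stretch of 50 bases with a member's main transcript, and 0 of them had a row in the count tables. Gapdh accounted for 213 of them, and 82.5% of its 50-base stretches, or 90.5% of those in the last 500 bases that a 3′ library reads, recurred in a pseudogene. Ldha had 14, Pkm 7, Aldoa and Pgk1 5 each, Pgam1 4, Tpi1 2, Eno2 and Ldhb 1 each and Aldoc 0. The Eno2 match was Mdm4-ps, which is named for another gene and shared 0.036% of the Eno2 stretches. In the last 500 bases the shared part was 24.4% for Ldhb, 7.32% for Pgk1, 3.33% for Aldoa and 0% for Pgam1, Eno2, Pkm, Ldha, Tpi1 and Aldoc. Genes not classed as pseudogenes also shared 50-base stretches. They were Gm10358, Gm11214, Gm15294, Gm3839 and Peli2 for Gapdh, Aldoart1 for Aldoa and Gm49759 for Pkm. Their rows and counts are not given here, so counted genes may also share reads with these members. How the authors' counting treated reads with several matches was not stated, so the counts of Gapdh in particular are uncertain. Leaving Gapdh out of the sum gave -0.24 in astrocytes, -0.11 in oligodendrocytes, -0.15 in glutamatergic and -0.17 in GABAergic neurons. Leaving out Aldoc instead gave -0.46, -0.12, -0.15 and -0.16 in the same order.

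In addition, 3 members overlap a gene on the opposite strand, and the use of strand in counting was not stated. Aldoa overlaps Fam57b, which was at -0.090 (-0.18 to -0.0041) in glutamatergic and -0.069 (-0.26 to 0.13) in GABAergic neurons, closer to 0 than Aldoa in both. Gapdh overlaps Iffo1, which was higher in the injury library, at 0.15 (0.093 to 0.21) and 0.29 (0.15 to 0.44), against the lower or level values of Gapdh. Tpi1 overlaps Spsb2, which had 190 and 140 UMIs in glutamatergic neurons and a ratio of -0.55 (-0.88 to -0.23), in the same direction as Tpi1. In astrocytes Spsb2 had 1 and 7 UMIs, so that few of its counts lay beside the 25 and 28 of Tpi1. A second row that carries the name Aldoa was kept apart. It held 63 and 101 UMIs in glutamatergic neurons, a ratio of 0.57 (0.099 to 1.04), opposite to Aldoa itself.

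The other enzymes of glycolysis, taken from a list of 20 genes that was likewise drawn up with results of these data known, lay nearer to 0 in the neurons. Of these 20 genes, among them hexokinases, phosphofructokinases and further isozymes, 14 had at least 50 UMIs in glutamatergic neurons, and 0 of these were lower and 0 higher by 0.25, against 12.4% and 14.5% of all genes. Their medians were 0.48 in astrocytes (5 genes), -0.072 in oligodendrocytes (7), 0.052 in glutamatergic (14) and -0.024 in GABAergic neurons (12). In astrocytes 3 of 5 were higher and 0 lower, with 26.9% of all genes higher. They were Hk1, Pfkp and Gpi1. Hk1, a hexokinase, had 26 and 128 UMIs and was at 0.64 (0.025 to 1.31). Pfkp, the platelet-type phosphofructokinase, had 103 and 480 UMIs and was at 0.56 (0.25 to 0.88). Gpi1, the glucose-6-phosphate isomerase, was at 0.50 (-0.15 to 1.20). The count of 0 lower holds only for genes with at least 50 UMIs, while all 10 members were counted. Below this minimum, Bpgm was at -1.01 (-1.98 to -0.011) on 16 and 25 UMIs. Pfkl was at -0.78 (-1.86 to 0.37) and, the other way, Gapdhs at 0.99 (-0.55 to 2.97). The rest had fewer UMIs. In oligodendrocytes, with 24.5% of all genes lower and 19.7% higher, 2 of 7 were lower, Eno1 on 41 and 37 UMIs at -1.44 (-2.12 to -0.76) and Gapdhs at -0.33 (-0.91 to 0.27), and 2 higher, Pfkl at 0.64 (-0.34 to 1.75) and Pfkp at 0.29 (-0.29 to 0.91). In GABAergic neurons, with 13.1% and 16.5%, 0 of 12 were lower and 3 higher, among them Eno3 at 0.30 (-0.23 to 0.84) and Gapdhs at 0.27 (0.052 to 0.49). Hk1 and Pfkp are longer than any member, with Hk1 at 111 kb and Pfkp at 69.0 kb.

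Of 15 regulators and transporters, 2 were lower and 1 higher among 14 tested in glutamatergic neurons, where 12.4% and 14.5% of all genes were. Hif1a, the hypoxia-inducible transcription factor, was at -0.31 (-0.38 to -0.25) and Pdk1, a kinase that inhibits pyruvate dehydrogenase, at -0.27 (-0.35 to -0.19). Pfkfb4, which sets the level of fructose 2,6-bisphosphate, was higher at 0.27 (0.20 to 0.34). GABAergic neurons had 0 of 13 lower and 3 higher, against 13.1% and 16.5% of all genes, namely Pfkfb4 at 0.28 (0.14 to 0.41), Pfkfb1 at 0.46 (-0.20 to 1.15) and Tigar at 0.25 (-0.12 to 0.63). In astrocytes, with 25.2% of all genes lower and 26.9% higher, 2 of 7 were lower, Pdk1 on 20 and 30 UMIs at -1.07 (-1.94 to -0.18) and Hif1a at -0.36 (-0.76 to 0.063), and 4 higher, Pfkfb4 at 0.73 (0.11 to 1.41), the glucose transporter gene Slc2a1 at 0.50 (-0.39 to 1.49), Pdk2 at 0.37 (-0.30 to 1.10) and Pfkfb2 at 0.37 (-0.26 to 1.05). Oligodendrocytes, with 24.5% and 19.7%, had 1 of 11 lower, Pdk1 at -1.13 (-1.84 to -0.42), and 2 higher, Pdk4 at 0.76 (-0.075 to 1.68) and Slc16a7, a carrier of lactate and pyruvate, at 0.31 (0.099 to 0.52). Pdk1 thus had an interval below 0 in 3 of the 4 classes, and Pfkfb4 one above 0 in 3.

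Of 8 genes for the entry of pyruvate into mitochondria, Pdp1, a phosphatase that activates pyruvate dehydrogenase, was lower in 3 classes, at -0.36 (-0.40 to -0.31) in glutamatergic neurons, -0.27 (-0.47 to -0.065) in GABAergic neurons and -0.93 (-1.57 to -0.29) in oligodendrocytes. It was the 1 gene of 8 past the fold in each neuron class, a share near the 12.4% and 13.1% of all genes that were lower there. Oligodendrocytes also had Mpc1, a subunit of the mitochondrial pyruvate carrier, at -0.34 (-0.58 to -0.091) and Pdhb higher at 0.39 (-0.14 to 0.96), and astrocytes had Dld at -0.41 (-1.29 to 0.53). The list's medians lay between -0.14 and 0.0022. Other sets were set beside the members, with medians over their genes with at least 50 UMIs. Of 77 ribosomal protein genes, 21 were tested in astrocytes and 77 in each other class. Their medians were -0.64, -0.46, -0.42 and -0.46 in astrocytes, oligodendrocytes, glutamatergic and GABAergic neurons. Of 83 nuclear genes of the respiratory chain, 30, 72, 81 and 77 were tested in the same order. Their medians were -0.33, -0.37, -0.27 and -0.28. The glycolysis members, whose medians took in all 10 genes, were nearer to 0 than both sets in oligodendrocytes and in each neuron class. In astrocytes they lay between the sets, also at -0.44 over the 7 members with at least 50 UMIs.

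**Figure D5:**
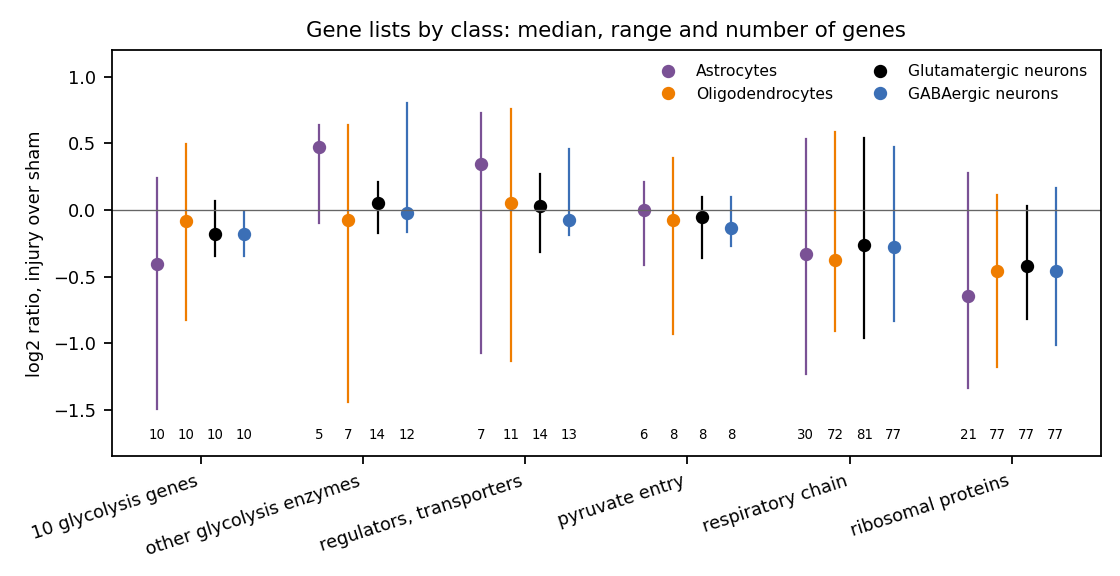
Median (point) and range (line) of the log2 ratio of injury over sham (vertical axis) for each gene list (horizontal axis) in the 4 classes, with the number of genes below. By median, the 10 glycolysis genes sit below 0 in each class and the ribosomal protein genes lowest. The other glycolysis enzymes, counted with at least 50 UMIs, have a median above 0 in astrocytes.

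The genes whose ratios were most like the members' medians over the 4 classes were Wac, Luc7l3, Tgs1, Nfs1 and Pick1, out of 5310 genes with at least 50 UMIs in every class, with root mean square differences of 0.0240 to 0.0387 on the log2 scale. Luc7l3, an RNA-binding factor of splicing, had ratios of -0.37, -0.096, -0.16 and -0.16 in astrocytes, oligodendrocytes, glutamatergic and GABAergic neurons. Of the members with enough UMIs in every class, Gapdh lay nearest to the medians (0.0973) and Tpi1 farthest (0.559). These genes ranged from 20.3 to 60.2 kb and were picked by these 4 values alone.

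Markers of other cell types were summed in each class. In astrocytes the 6 neuronal markers summed to 809 sham and 863 injury CPM, with a ratio of 0.093 (-0.076 to 0.26), and the 11 oligodendrocyte markers to 535 sham and 599 injury CPM, with a ratio of 0.16 (-0.045 to 0.37), each list detected in full in both libraries. In oligodendrocytes the 12 astrocyte markers summed to 219.9 sham and 311 injury CPM, with a ratio of 0.50 (0.34 to 0.67), with 10 detected in sham and 12 in injury nuclei, and the 4 GABAergic markers to 110.2 sham and 178 injury CPM, with a ratio of 0.69 (0.46 to 0.92). Glutamatergic neurons had a lower sum of the 12 astrocyte markers, 884 sham and 844 injury CPM, with a ratio of -0.068 (-0.081 to -0.055), and a higher sum of the 11 oligodendrocyte markers, 60.9 sham and 80.9 injury CPM, with a ratio of 0.41 (0.36 to 0.46). In GABAergic neurons the 2 lists were at 231 sham and 276 injury CPM, with a ratio of 0.26 (0.20 to 0.32), and 104 sham and 132 injury CPM, with a ratio of 0.35 (0.25 to 0.44). The 10 microglial markers summed to 77.1 sham and 76.1 injury CPM, with a ratio of -0.019 (-0.58 to 0.57), in astrocytes, with 5 detected in sham and 8 in injury nuclei, and to 61.1 sham and 75.5 injury CPM, with a ratio of 0.31 (-0.011 to 0.63), in oligodendrocytes, with 7 and 9 detected. Tmem119 was at 0 in both classes. In the neurons, with all 10 detected, they were higher in the injury library, at 119 sham and 132 injury CPM, with a ratio of 0.15 (0.12 to 0.18), in glutamatergic and 97.9 sham and 119.9 injury CPM, with a ratio of 0.29 (0.20 to 0.39), in GABAergic neurons. Called doublets made up 9.30% of sham and 11.6% of injury glutamatergic neurons and 7.55% and 13.8% of GABAergic neurons. The part of these markers and doublets in the members' ratios was not tested beyond leaving out the called doublets, after which the summed ratios were -0.27, -0.11, -0.16 and -0.16 in astrocytes, oligodendrocytes, glutamatergic and GABAergic neurons.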

How the data were processed

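Nuclei of 2 libraries, 1 Sham and 1 Injury by the treatment given with each sample, were analysed. The authors aligned reads to GRCm38 (mm10) and made UMI counts per gene and barcode with Cell Ranger 6.0.2, and the deposited values are raw counts with no normalization. bcl2fastq and Seurat 4.0 are also named in the submitters' processing notes. Whether introns and strand were counted, and the annotation release, were not given in the sources used here. The tables held 137850696 and 180106314 UMIs in 16390 sham and 21828 injury barcodes. Symbols and coordinates came from GENCODE M21 for 32158 of 32285 genes, and promoter sequences from RefSeq.

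The study's filter (at most 2% mitochondrial UMIs, 200 to 7500 genes) kept 16373 and 21777 nuclei. Doublets were scored with Scrublet (scanpy 1.11.5) with an expected rate that grew with the number of nuclei, which called 13.3% and 17.8%, and were kept. Libraries were integrated with Seurat 5.3.0 anchors (R 4.3.3) on 1999 of 2000 variable genes, without the members and pathway lists, and clustered with 30 components at a resolution of 0.5, then again within neuronal and non-neuronal nuclei. Clusters over 50% called doublets were set apart, and the rest were named from marker lists, with at least 3 detected markers, as like that class. The naming thresholds were set after the data were seen, and a difference from the study may come from rebuilt names. Neuron clusters under 50 nuclei in a library or led by markers of another class were kept out (1 sham and 388 injury GABAergic, 195 and 710 glutamatergic nuclei). Mixed clusters held 914 and 1701 nuclei and a low-UMI cluster 250 and 345.

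UMIs were summed per class. Ratios have no prior for single genes and 0.5 UMI for list medians, and a p-value was not computed, since there is 1 library per group. Intervals at 95% are exact Poisson for summed counts and Clopper-Pearson for both shares and the ratio of summed counts (scipy 1.17.1). They were run on simulated Poisson counts, the model they assume. That checks the code and says nothing of spread between nuclei or animals. Alternatives were edgeR 4.0.16 TMM factors, the mean CPM of nuclei, a prior of 2 UMIs, a minimum of 10 UMIs, no called doublets, thinning to 2000 UMIs, no integration, a resolution of 1, the mean over clusters, 5% free RNA subtracted and no filter on nuclei. The members and lists were chosen with earlier results of these data known. Named genes are all members, pathway genes past 0.25 with at least 50 UMIs, and the 5 genes nearest to the members' medians. In astrocytes, enzymes below 50 UMIs are also named and marked as such. A pathway gene that met this rule is not reported here.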

Additional observations from a re-analysis of the deposited data

How the results depend on the processing

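No paired analysis was possible because a group held 1 library, which leaves at most 1 pair. The summed ratio of the members ranged over the alternatives from -0.28 to -0.17 in astrocytes, -0.32 to -0.024 in oligodendrocytes, -0.16 to -0.13 in glutamatergic and -0.19 to -0.15 in GABAergic neurons, and was below 0 in every one. Of 46 such sums 45 stayed within their counting interval. Part of this count repeats values that did not change. In astrocytes a prior of 2 UMIs, no integration and no filter on nuclei all gave the main sum of -0.26. The mean over clusters and leaving out the injury cluster both gave -0.28, from the same cluster. The counts below for medians and single members hold such repeats too. The exception was oligodendrocytes thinned to 2000 UMIs per nucleus, at -0.32, where 714 of 1005 sham nuclei were left out. The median over the members stayed within a band set around its main value in 53 of 54 cases. The exception was -0.49 in oligodendrocytes as a mean over clusters. That band was wide, from -1.97 to 1.16 in astrocytes, so staying within it there says little. Over the alternatives the median ranged from -0.50 to -0.23 in astrocytes and -0.49 to 0.0026 in oligodendrocytes. In glutamatergic neurons it ranged from -0.19 to -0.13, and in GABAergic neurons from -0.21 to -0.11. Of single members 446 values stayed, 11 moved out of their counting interval, and 3 reversed. Reversed means a change of sign where that interval had excluded 0. Changes of sign where it had included 0 were not counted as reversed, and came from other settings too. Examples are Eno2 and Ldha in astrocytes, at 0.36 and 0.080 with the mean CPM of nuclei. Another is Ldhb in oligodendrocytes, which ranged from -0.76 to 0.99 over the alternatives. The reversed values all came from thinning, namely Ldhb in astrocytes at 0.0060, Pgam1 in oligodendrocytes at 0.11 and Aldoc in glutamatergic neurons at 0.12, and beyond the smaller number of UMIs the cause was not tested. TMM factors moved all ratios of a class by at most 0.029 on the log2 scale. With a fold of 0.5 in place of 0.25, fewer genes passed by construction. The share of all genes past 0.5 was not taken, so nothing is read from the counts at this fold. Of the members, 2 in astrocytes (Aldoa and Tpi1), 1 in oligodendrocytes (Pgam1) and 0 in either neuron class were lower by 0.5, in place of 7, 3, 3 and 3, and 0 were higher. In the pathway lists 2 other glycolysis enzymes stayed higher in astrocytes, and the counts that changed by more were, in astrocytes 1 lower and 1 higher among regulators and transporters, 0 lower among pyruvate entry, and in oligodendrocytes 1 lower and 1 higher among other glycolysis enzymes, 1 higher among regulators and transporters, 1 lower and 0 higher among pyruvate entry, and in glutamatergic neurons 0 lower and 0 higher among regulators and transporters, 0 lower among pyruvate entry, and in GABAergic neurons 1 higher among other glycolysis enzymes, 0 higher among regulators and transporters, 0 lower among pyruvate entry. TMM factors left 2 pyruvate entry genes lower in GABAergic neurons in place of 1. Alternatives chosen after the data were seen were the glial clusters of mostly 1 library left out, only members with at least 50 UMIs, and barcodes found in both libraries left out. Depth limits the glial values, and no member exceeded 72 sham UMIs in astrocytes.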

Other observations

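In oligodendrocyte precursors, with 108 sham and 165 injury nuclei, the 10 genes summed to 73 and 97 UMIs, or 237 and 191 CPM, a log2 ratio of -0.31 (-0.76 to 0.15). In microglia, with 27 and 154 nuclei, the sum was 14 and 103 UMIs, or 437 and 498 CPM, a ratio of 0.19 (-0.62 to 1.11). Both intervals included 0, and 55.6% of the sham microglia were called doublets. No member reached 50 UMIs in either class. Pkm, the pyruvate kinase gene, had 1 and 19 UMIs in microglia, and Ldhb 4 and 18.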
